A study of Homo sapiens with 4 samples.

Results

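The cytosolic ribosomal protein genes are the genes for the proteins of the ribosome that works in the cytoplasm. They were taken as the protein-coding genes whose symbol is RPL or RPS with a number and at most one letter A or X, together with RPLP0, RPLP1, RPLP2 and RPSA. This rule, which uses names and no measured value, found 78 entries of 29387 genes listed for all 4 libraries, 47 of the large and 31 of the small subunit. RPL41 has 2 entries. The one on chromosome 12 carried the counts, and the one on chromosome 7 had 0 and 0 counts in the invasive libraries and 1 and 2 in the controls. The chromosome 7 entry was not tested, which left 77 tested genes, 46 of the large and 31 of the small subunit.

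The libraries came from U87MG, an established human glioblastoma line, and held polyadenylated RNA. Highly invasive populations were recovered from organotypic brain slices, living sections of brain kept in culture, after 1 week in a medium for neural stem cells supplied with both FGF and EGF. Poorly invasive control populations were isolated from slice cultures too, and all populations were then expanded in vitro for 3 to 5 days. The study compared invasive 1 with control 1 and invasive 2 with control 2, and its design text says that the invasive populations were derived independently. Every population gave 1 library, and the labels name no genetic change or drug in any group. The labels do not say whether an invasive clone grew from a single cell, and neither do they give the species of the slice.

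A ribosome is built from ribosomal RNA and one copy of most ribosomal proteins. The large subunit, which holds the RPL proteins, forms peptide bonds, and the small subunit, which holds the RPS proteins, reads the mRNA. Their mRNAs are among the most abundant of a growing cell, and most begin with a 5′ terminal oligopyrimidine tract (TOP), a run of C and T bases at the cap through which mTOR and LARP1 control their translation. In bulk samples, fewer cells of a type and less of an mRNA per cell cannot be told apart.

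The start of the transcript is shown for 8 genes, since the tract is the sequence feature that defines TOP mRNAs. The first group holds genes at the low end of the differences described below, the second genes at the high end. Each line gives 20 bases before a RefSeq start and 10 bases from it, 5′ to 3′, and capitals mark the pyrimidines (C or T) that run on without a break from the start.
RPL26, chr17:8383184-8383213, minus strand: accggaagcagcgtgtagttCTCTTCCCTT
RPL14, chr3:40457319-40457348, plus strand: gggttgggcgggtcttcttcCTTCTCgcct
RPL39, chrX:119791621-119791650, minus strand: gctcgttcttccgccagcttCCCTCCTCTT
RPS3A, chr4:151099608-151099637, plus strand: tcgcgcgactcccacttccgCCCTTTTggc
RPL28, chr19:55385912-55385941, plus strand: tcgcctcgcccctcgccttcCTCTTTCCgt
RPLP0, chr12:120201102-120201131, minus strand: ggcacgcgcgggcgcgaggcCCTTCTCTCg
RPS15, chr19:1438376-1438405, plus strand: ataactgcgcaggcgcggacCaaagcgatc
RPS29, chr14:49598701-49598730, minus strand: ttttcccccgagcgcgcagcTggcagcggt

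These windows come from RefSeq on GRCh38.p14. The tract was searched on the transcript's own strand as a C at the start followed by at least 4 further C or T bases, and the opposite strand was not searched, because a start has a direction. It was present at a listed start of 46 of 62 matched genes (74.2%), against 5.14% of all 27305 symbols in the table. In the printed set the tract began RPL26, RPL14, RPL39 and RPS3A at the low end and RPL28 and RPLP0 at the high end. The listed starts of RPS15 and RPS29 lacked it. The printed genes are not all of either end. RPL9, at the low end with a log2 fold change of −0.40, lacked the tract at its listed start. RPLP1 and RPL21, at the high end of the large subunit, had it. A gene without a match has no such letters at that listed start and may have other starts.

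Ribosomal protein mRNAs took a smaller share of the counts in both invasive libraries than in either control. They made up 3.13% and 2.92% of all counts in invasive 1 and invasive 2, against 3.49% and 3.27% in control 1 and control 2. The means were 3.03 ± 0.14% in invasive populations and 3.38 ± 0.16% in controls (SD, n = 2 each). The groups did not overlap. The summed level was 10.4% lower in invasive 1 than in control 1 (ratio 0.896, 95% counting interval 0.893 to 0.899). It was 10.6% lower in invasive 2 than in control 2 (ratio 0.894, 0.890 to 0.898). These Clopper-Pearson intervals cover counting error between libraries, not the spread between populations. With 2 libraries a group, a two-sided exact permutation test that ignores the pairs cannot give a p under 0.333. One that keeps the pairs has still fewer arrangements, and none was run on the sums. The 320 annotated pseudogenes named for 62 of these genes, copies that could take up reads, held counts equal to 0.446% and 0.435% of the members' counts in the invasive libraries, against 0.340% and 0.382% in the controls.

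Large and small subunit sums differed from the controls by similar amounts. Large subunit genes took 1.98% and 1.85% of counts in the invasive libraries, against 2.23% and 2.06% in the controls. Small subunit genes took 1.14% and 1.07% in the invasive libraries, against 1.26% and 1.21% in the controls. Neither subunit's groups overlapped. The large subunit sum was 10.9% lower in pair 1 and 10.4% lower in pair 2, and the small subunit sum was 9.47% and 10.9% lower. The ratio of large to small subunit counts was 1.74 and 1.72 in the invasive libraries, against 1.76 and 1.71 in the controls, and these ranges overlapped.

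**Figure D1:**
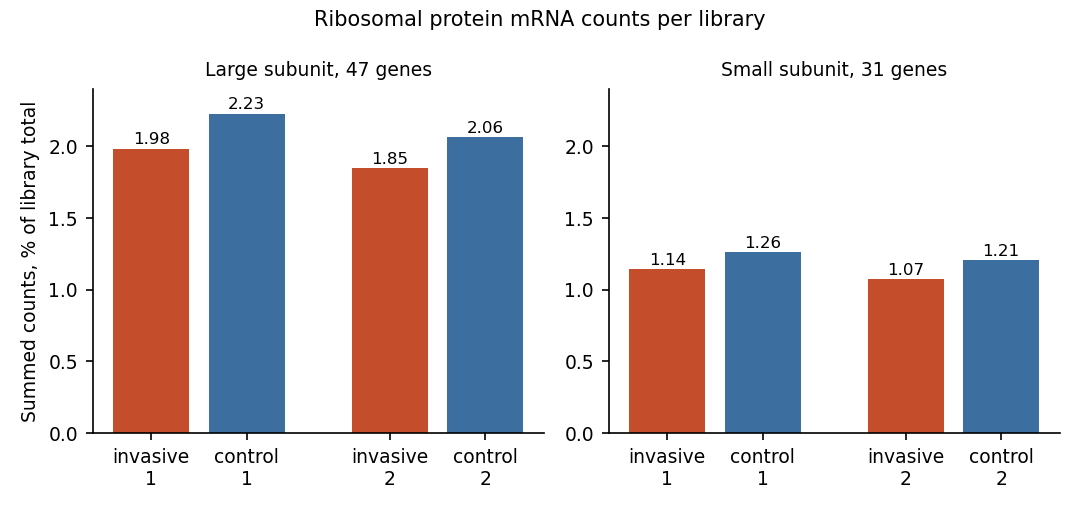
Summed counts of the 47 large subunit genes (left) and the 31 small subunit genes (right) as a percentage of each library's total, with 1 bar for each library. In both panels each invasive bar is lower than both control bars, with 1.98% and 1.85% against 2.23% and 2.06% in the large subunit.

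Gene by gene, the difference was small and nearly uniform in sign. In the fit over all genes 73 of 77 tested members had a negative log2 fold change (invasive over control), where 49.2% of the 14231 genes tested did. The median was −0.19 over the members, which is 12.5% lower in invasive populations, and 0.01 over all genes. It was −0.21 in the large subunit and −0.16 in the small. The quartiles of the set lay at −0.25 and −0.12. The SD across members was 0.12, against 0.43 across all genes tested, whose fold changes include those of many scarcer genes. Among the 2352 other genes with a mean of at least 100 counts per 1e6 counts (CPM), the SD was 0.28, the median −0.05, and 1414 (60.1%) were negative.

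No single member passed the test. By edgeR's quasi-likelihood test, blocked on the pair and adjusted by Benjamini-Hochberg, 0 members were called lower and 0 higher at an adjusted p of 0.05, where 0.0351% and 0.239% of all genes tested were called, 0.274% in all. With no filter on low counts the same test called 7 members lower and 0 higher, against 2.71% and 2.97% of genes. With no replicate block it called 0 members lower and 0 higher, against 0.0% and 0.0141%. At an unadjusted p under 0.05, 21 members were lower and 0 higher, against 8.41% and 9.82% of all genes. Of the 2352 other genes with a mean of at least 100 CPM, 344 were lower and 208 higher at that p. With no block the members' count was 8 lower, against 4.5% of all genes. In fits with no block it was 7 lower without invasive 1, against 5.18% of genes, and 2 without control 1, against 4.15%. It was 2 without invasive 2, against 2.55%, and 2 without control 2, against 2.41%. DESeq2 with the pair called 0 members, where it called 0.204% of all genes lower and 0.998% higher, and it had 7 members lower and 0 higher at an unadjusted p under 0.05, against 2.74% and 4.24% of genes. The median standard error of a member's log2 fold change was 0.10, and the 5.45 prior degrees of freedom outweigh the 1 residual degree of the design. A difference of the size of the median was thus within 2 standard errors for a single gene.

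Pair by pair, the members were mostly on the same side. In pair 1 68 of 77 members were lower in the invasive library, with a median log2 difference of −0.17. In pair 2 72 were lower, with a median of −0.18. The medians over all genes were 0.04 and 0.01. In both pairs 66 members were lower, where 29.3% of all genes and 40.6% of other genes with a mean of at least 100 CPM were lower in both. A further 3, RPL28, RPLP0 and RPS15, were higher in both, against 36.0% of all genes, and 8 had opposite signs, against 34.7%. The invasive levels lay below both control levels for 45 members, against 19.7% of all genes and 27.8% of those other abundant genes. They lay above both for 2 members, RPL28 and RPS15, against 23.7% of all genes.

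Across the 77 members Spearman's correlation between the pairs' log2 differences was 0.58, with 0.64 in the large and 0.49 in the small subunit, and it was 0.39 across the other genes tested and 0.52 across those with a mean of at least 100 CPM. These are descriptions across genes of the same 4 libraries, and genes are not independent replicates. Counting error was small beside these differences. All but 4 of the 77 members had at least 1000 counts in each library, and the 95% counting interval of the ratio lay below 1 for 64 members in pair 1 and 61 in pair 2. Among the other genes of at least 100 CPM it lay below 1 for 38.8% in pair 1 and 44.9% in pair 2. It lay above 1 for 3 members in each pair, against 29.6% and 34.4% of those genes.

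**Figure D2:**
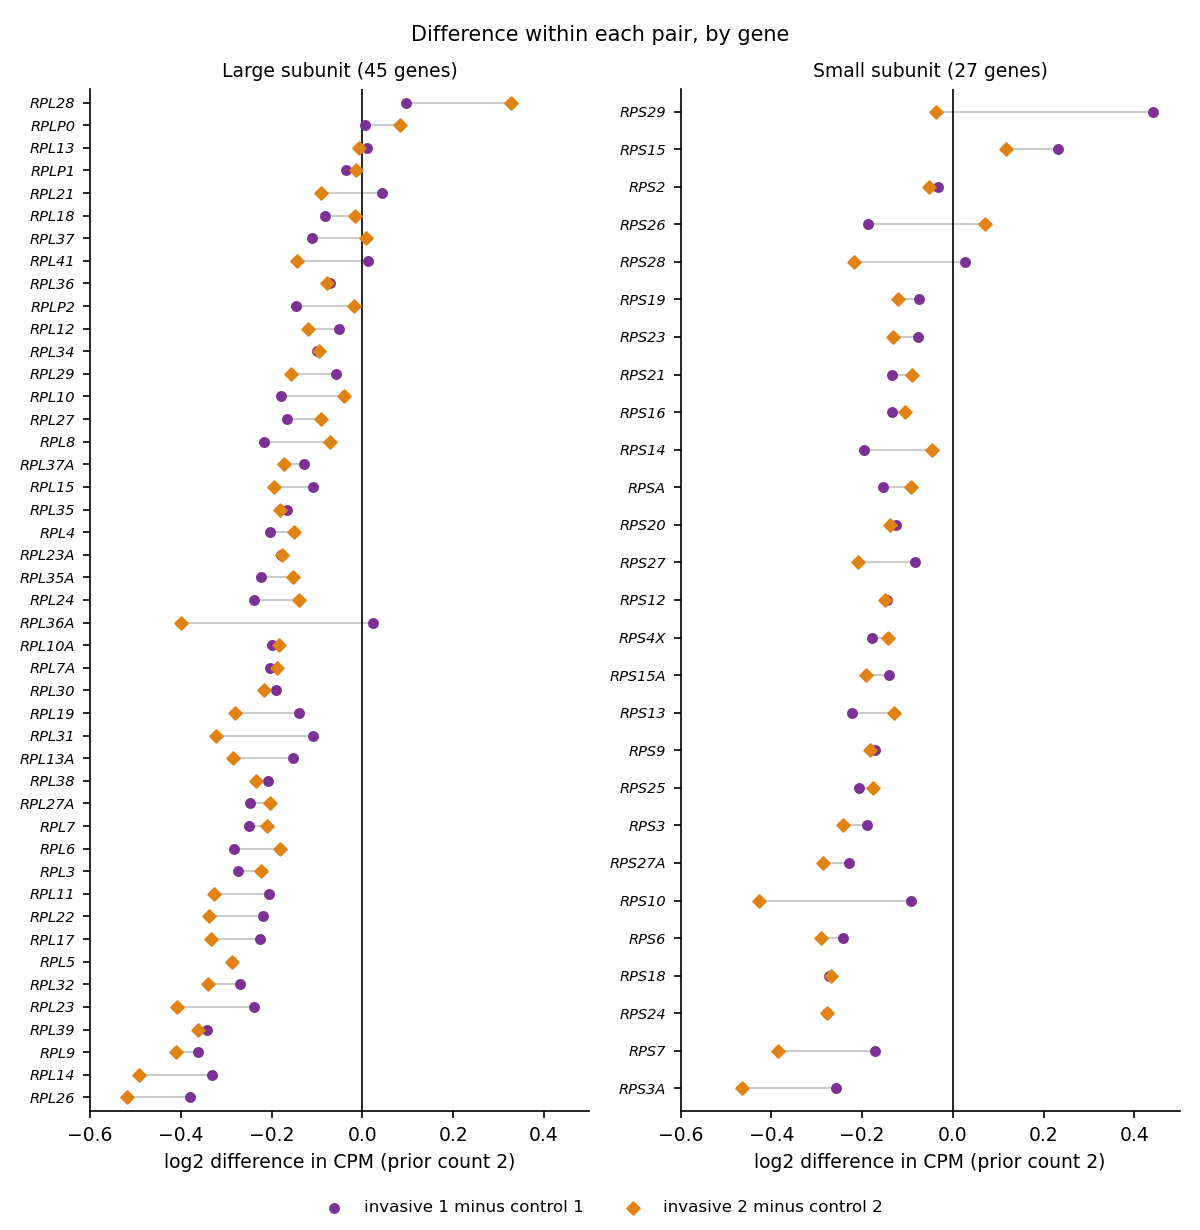
Log2 difference in CPM within each pair (invasive minus control, prior count 2) for 45 large subunit genes (left) and 27 small subunit genes (right), ordered by the log2 fold change of the fit. Circles are pair 1 and diamonds pair 2. Most points of both kinds lie left of 0, and RPL28, RPLP0 and RPS15 lie right of it in both pairs.

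The 5 lowest genes of the large subunit were RPL26, RPL14, RPL9, RPL39 and RPL23. The RPL26 protein sits beside the mouth of the tunnel through which the new chain leaves, and it is also known for binding the p53 mRNA. RPL26 had 122 and 103 CPM in invasive populations, against 159 and 148 CPM in controls. Its levels did not overlap, and its log2 fold change of −0.47 ± 0.10 (SE) was the lowest of the 77, 27.7% lower, with an adjusted p of 0.107 (edgeR quasi-likelihood test, Benjamini-Hochberg). RPL39, a small protein that lines the tunnel, had 229 and 237 CPM in invasive populations, against 290.1 and 305 CPM in controls. It too was lower in each invasive library than in either control, with a log2 fold change of −0.37 ± 0.10.

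RPL14, a structural protein of the large subunit, had 374 and 292 CPM in invasive populations, against 471 and 411 CPM in controls (log2 fold change −0.43 ± 0.10, edgeR adjusted p 0.129). RPL9, whose protein lies near the base of the stalk, had 389 and 389.8 CPM in invasive populations, against 500.1 and 518 CPM in controls (−0.40 ± 0.10, edgeR adjusted p 0.132). RPL23, at the face that meets the small subunit and known to bind MDM2, had 498 and 407 CPM in invasive populations, against 588 and 540.2 CPM in controls (−0.34 ± 0.10). All 3 were without overlap between groups.

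RPL5 and RPL11 travel with 5S ribosomal RNA, and when ribosome assembly fails this particle binds MDM2 and stabilises p53. RPL5 had 307 and 296 CPM in invasive populations, against 374 and 362 CPM in controls, a log2 fold change of −0.31 ± 0.10. RPL11 had 605 and 521 CPM in invasive populations, against 698 and 653 CPM in controls, a log2 fold change of −0.29 ± 0.10. Neither overlapped between groups, and neither passed the adjusted threshold (edgeR adjusted p 0.195 and 0.226).

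RPL22, an RNA-binding protein of the ribosome's surface, had 115 and 118 CPM in invasive populations, against 134 and 149 CPM in controls (log2 fold change −0.30 ± 0.09). RPL10, which joins the large subunit late in its maturation, had 586 and 614 CPM in invasive populations, against 664 and 632 CPM in controls (−0.13 ± 0.11). Levels of both were separate between groups, and that of RPL10 was 2.81% lower in invasive 2 than in control 2. RPL10 also lies opposite DNASE1L1, whose exons cover 34.2% of its own, so reads of this pair could have been mixed if counting ignored strand.

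The acidic stalk proteins, which recruit the GTPases of elongation, had log2 fold changes between −0.10 and 0.03. RPLP0, the base of the stalk, had 1516 and 1452 CPM in invasive populations, against 1509.8 and 1371 CPM in controls (log2 fold change 0.03 ± 0.10). RPLP1 had 804 and 780.0 CPM in invasive populations, against 824 and 787 CPM in controls (−0.04 ± 0.10). RPLP2 had 367 and 387 CPM in invasive populations, against 407 and 392 CPM in controls (−0.10 ± 0.10). Groups overlapped for RPLP0 and RPLP1 and did not for RPLP2.

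RPL28 was the highest of the 77, with 404 and 385 CPM in invasive populations, against 378 and 307 CPM in controls. Both invasive levels were above both control levels, most of all in pair 2, and the log2 fold change was 0.19 ± 0.11 with an adjusted p of 0.402 (edgeR). RPL13 had 461 and 499 CPM in invasive populations, against 458 and 501 CPM in controls, and the groups overlapped (−0.02 ± 0.10). RPL21 had 19.3 and 24.7 CPM in invasive populations, against 18.7 and 26.3 CPM in controls (−0.04 ± 0.13). All of RPL21's coding sequence, in windows of 50 bases, is also found in transcripts of other genes, so its level is uncertain.

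In the small subunit the lowest log2 fold change was that of RPS3A, a protein near the mRNA exit. It had 346 and 322 CPM in invasive populations, against 413 and 445 CPM in controls, without overlap (−0.38 ± 0.10, edgeR adjusted p 0.158). RPS7 and RPS24 are both mutated in some patients with Diamond-Blackfan anaemia, a disease of ribosome production. RPS24 had 429 and 393 CPM in invasive populations, against 520.3 and 476 CPM in controls (−0.30 ± 0.10). RPS7 had 509.7 and 377 CPM in invasive populations, against 574 and 493 CPM in controls (−0.30 ± 0.11). RPS24 was separate between groups, while invasive 1 exceeded control 2 for RPS7. RPS18, a protein of the subunit's head, had 333 and 319 CPM in invasive populations, against 402 and 385 CPM in controls (−0.29 ± 0.10), again with no overlap.

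RPS6 is the substrate of the S6 kinases downstream of mTOR. It had 422 and 387 CPM in invasive populations, against 499 and 474 CPM in controls (log2 fold change −0.29 ± 0.10, edgeR adjusted p 0.219), without overlap. RPS27A, made as a fusion with ubiquitin, had 378 and 385 CPM in invasive populations, against 443 and 469.6 CPM in controls (−0.28 ± 0.10). RPS3, at the mRNA entry channel, had 363 and 322 CPM in invasive populations, against 414 and 381 CPM in controls (−0.23 ± 0.10). Both were lower in each invasive library than in either control. RPSA, also known as a laminin receptor, had 452 and 395 CPM in invasive populations, against 503 and 421 CPM in controls (−0.14 ± 0.10). RPS27, a zinc-finger protein of the small subunit, had 216 and 179 CPM in invasive populations, against 229 and 207 CPM in controls (−0.16 ± 0.10). The groups overlapped for RPSA and RPS27, although each pair on its own had the lower level in the invasive library.

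At the high end of the small subunit stood RPS29 and RPS15, both proteins of the head. RPS29 had 90.3 and 82.6 CPM in invasive populations, against 66.5 and 84.7 CPM in controls. Its pairs disagreed, with log2 differences of 0.44 in pair 1 and −0.04 in pair 2, and the fitted value was 0.18 ± 0.13. RPS15 had 292 and 265 CPM in invasive populations, against 248 and 245 CPM in controls, higher in both invasive libraries (0.16 ± 0.10, edgeR adjusted p 0.446).

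RPS2, which helps form the mRNA entry channel, had 508 and 477 CPM in invasive populations, against 519 and 495 CPM in controls (log2 fold change −0.06 ± 0.10). RPS26, which contacts the mRNA upstream of the start codon, had 146 and 137 CPM in invasive populations, against 166 and 130.4 CPM in controls (−0.08 ± 0.11). Both overlapped between groups.

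Levels differed far more between genes than between populations. On a per-kilobase scale (CPM divided by coding length, mean of 4 libraries), the median member stood at 824 CPM per kb. The median was 851 in the large subunit and 792 in the small. The most abundant large subunit genes on that scale were RPL41 at 2554, RPLP1 at 2336, RPL37A at 2116, RPL39 at 1733 and RPLP0 at 1538 CPM per kb. RPL41 encodes the shortest of these proteins, with 75 coding bases, so UTR reads weigh heavily in its value. In the small subunit RPS12 led at 2085 CPM per kb, followed by RPS19 at 1537, RPS21 at 1321, RPS20 at 1273 and RPS24 at 1140 CPM per kb.

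Of these abundant genes not yet given, RPL41 had 201 and 174 CPM in invasive populations, against 199.6 and 192 CPM in controls (log2 fold change −0.08 ± 0.10). RPL37A, a zinc-finger protein, had 569.7 and 537 CPM in invasive populations, against 623 and 606 CPM in controls (−0.17 ± 0.10). RPS12 had 795 and 772 CPM in invasive populations, against 879.6 and 856 CPM in controls (−0.17 ± 0.10). RPL37A and RPS12 were separate between groups and RPL41 was not. RPS19, the gene most often mutated in Diamond-Blackfan anaemia, had 654 and 637 CPM in invasive populations, against 689 and 693 CPM in controls (−0.12 ± 0.10). RPS20 had 430.4 and 437 CPM in invasive populations, against 469.7 and 481 CPM in controls (−0.15 ± 0.10). RPS21 had 301 and 331 CPM in invasive populations, against 331 and 352 CPM in controls (−0.13 ± 0.10). RPS19 and RPS20 did not overlap between groups, and for RPS21 the level of invasive 2 was as high as that of control 1.

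At the bottom of the scale, 4 genes lay far below the rest. RPL17 had 15.5, RPS10 19.4, RPL36A 24.5 and RPL21 46.4 CPM per kb, and the next was RPL26 at 306. For all 4, 100% of the 50-base windows of the coding sequence occur in transcripts of other genes. For RPL17, RPS10 and RPL36A these include readthrough genes, RPL17-C18orf32, RPS10-NUDT3 and RPL36A-HNRNPH2, which share 100%, 91.3% and 93.3% of the windows. Whether reads shared between genes were dropped in counting was not tested, and the levels of these 4 genes, singled out after their values were seen, are uncertain.

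Sharing of sequence was common in the set. In 39 tested members at least 50% of windows were shared with another gene, and their median log2 fold change was −0.21. In the 38 others it was −0.17, and 35 of those 38 were lower in both pairs. The 46 genes with a tract at a listed start had a median log2 fold change of −0.19 and the 16 without one −0.20. Within the large subunit the medians were −0.18 with the tract and −0.24 without it, and within the small subunit −0.195 and −0.095.

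Among the properties examined, base composition followed the differences most closely. Members with a lower GC content of the coding sequence had lower log2 fold changes, with a Spearman correlation of 0.57 over 77 members and 0.58 in each subunit. The same correlation with coding length was −0.18, with the share of windows found in other genes −0.19 and with the level −0.02. The same sign held across 14018 other genes, with a Spearman correlation of 0.25, and all of these values share the same 4 libraries. The 14 members of up to 46% GC had a median log2 fold change of −0.29, where other genes in that range had −0.07. The 11 members above 58% GC had −0.08, where other genes had 0.11. In each of 5 GC ranges the members' median was below that of the other genes. An alternative fit that removes each library's trend with GC, chosen after seeing the data, gave a median of −0.18 over the members and an SD across them of 0.10. It called 0 members lower and 0 higher by edgeR's test, against 0.0284% and 0.213% of genes, and had 23 lower at an unadjusted p under 0.05, against 7.88%. In that fit RPS15 stood at 0.04, RPL28 at 0.12, RPL13 at −0.12 and RPS2 at −0.16.

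**Figure D3:**
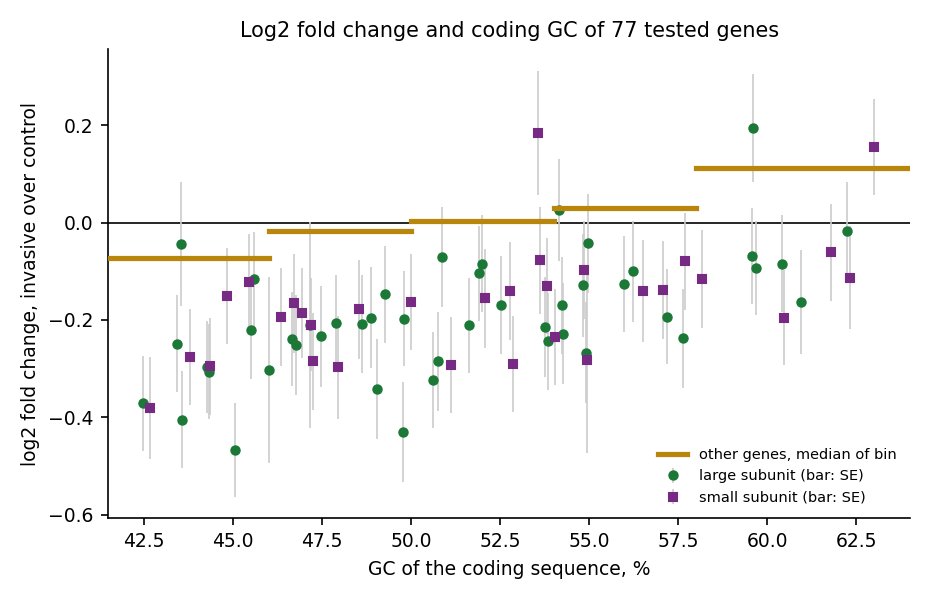
Log2 fold change (invasive over control, bars SE) of the 77 tested members against the GC content of the coding sequence, in percent. Circles are large and squares small subunit genes, and horizontal lines are the medians of other genes in 5 GC ranges. Members at low GC lie lowest, and their medians are −0.29 up to 46% GC and −0.08 above 58% GC.

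Other genes tied to the ribosome were set beside the members. For each list that follows, the shares over all genes tested are 0.0351% called lower and 0.239% called higher, 8.41% lower and 9.82% higher at an unadjusted p under 0.05, and 29.3% lower in both pairs. A pair of ribosomal genes lies outside the naming rule. FAU, the fusion gene of RPS30, had 197 and 202 CPM in invasive populations, against 215 and 191 CPM in controls (log2 fold change −0.04 ± 0.11). Its groups overlapped. GNB2L1, the scaffold protein RACK1, had 908 and 818 CPM in invasive populations, against 965 and 931 CPM in controls, without overlap (−0.16 ± 0.10).

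Of the 6 tested paralogs of ribosomal proteins, 0 were called by edgeR in either direction and 3 were lower and 0 higher at an unadjusted p under 0.05, against 8.41% and 9.82% of all genes. Their median log2 fold change was −0.28. RPL22L1, the paralog of RPL22, had 126 and 126 CPM in invasive populations, against 157 and 172 CPM in controls (−0.40 ± 0.10). RPL39L, the paralog of RPL39 best known from testis, had 11.6 and 6.80 CPM in invasive populations, against 13.3 and 14.3 CPM in controls (−0.63 ± 0.24). RPL7L1 had 138 and 133 CPM in invasive populations, against 166 and 168 CPM in controls (−0.32 ± 0.09). The groups were separate for all 3. RPS27L, RPL26L1 and RPL36AL had log2 fold changes of −0.24, −0.15 and 0.11. RPL3L and RPL10L had at most 1 count in a library and were not tested.

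Of 24 nucleolar assembly genes, whose products make ribosomes, 21 had a negative log2 fold change and 3 a positive one. By edgeR 0 were called, and 16 were lower and 0 higher at an unadjusted p under 0.05, against 8.41% and 9.82% of all genes. In both pairs 20 were lower, against 29.3%. Their median log2 fold change was −0.31. NPM1, a nucleolar chaperone of ribosome assembly, had 876 and 925 CPM in invasive populations, against 1222 and 1182 CPM in controls (−0.44 ± 0.11, edgeR adjusted p 0.132). NCL, the nucleolin gene, had 832 and 698 CPM in invasive populations, against 1057 and 1014 CPM in controls (−0.46 ± 0.11, edgeR adjusted p 0.128). Both were lower in each invasive library than in either control. The lowest was LTV1, an assembly factor of the small subunit, at −0.54 ± 0.13. UBTF, the transcription factor of ribosomal DNA, was among the 3 with a positive value, at 0.11 ± 0.09. These genes were chosen from the list after their values were seen.

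Mitochondrial ribosomal protein genes, whose ribosome is separate, had a median log2 fold change of −0.18 over 77 tested of 79. By edgeR 0 were called, with 20 lower and 1 higher at an unadjusted p under 0.05, and 47 were lower in both pairs, where 8.41%, 9.82% and 29.3% of all genes were. Their SD of 0.18 was wider than that of the cytosolic set. In the cytosolic set 66 of 77 were lower in both pairs. Both invasive levels lay below both control levels for 45 cytosolic and 44 mitochondrial ribosomal genes, against 19.7% of all genes. The mitochondrial set was far scarcer, with summed levels of 3482 to 3987 CPM in a library, against 29235 to 34917 CPM. The difference between the lists was not tested.

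Translation factors and other mRNAs of the TOP class were represented by 15 genes with a median of −0.14. By edgeR 0 were called, and 4 were lower and 0 higher at an unadjusted p under 0.05, against 8.41% and 9.82% of all genes. The 4 were EIF2A at −0.45, EIF3E at −0.43, EEF1B2 at −0.37 and HNRNPA1 at −0.29 on the log2 scale. EEF1A1, which brings tRNA to the ribosome, had 2702 and 2713 CPM in invasive populations, against 2967 and 2904 CPM in controls (−0.14 ± 0.11). Its groups did not overlap. The log2 fold changes of the other 10 lay between −0.22 for EIF3H and 0.09 for EIF4A2, among them EIF4B at −0.20, EIF3L at −0.19, NAP1L1 at −0.10, PABPC1 and EEF2 at −0.08, TPT1 at −0.02, EIF3F at −0.01 and EEF1D at 0.02.

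Host RNAs of small nucleolar RNAs, several of which are known to carry the tract, had a median of −0.32 over 12 entries, 2 of them for SNHG7. By edgeR 0 were called, with 6 lower and 0 higher at an unadjusted p under 0.05, where 8.41% and 9.82% of all genes were. SNHG1 had 114 and 145 CPM in invasive populations, against 151 and 193 CPM in controls (−0.43 ± 0.09, edgeR adjusted p 0.119). Control 1 lay only just above invasive 2. SNHG15 stood at −0.46, SNHG8 and EPB41L4A-AS1 at −0.38, SNHG16 at −0.35 and SNHG7 at −0.35 and −0.05. The others, SNHG12, SNHG5, SNHG6, GAS5 and ZFAS1, stood at −0.30, −0.22, −0.14, −0.11 and −0.07.

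**Figure D4:**
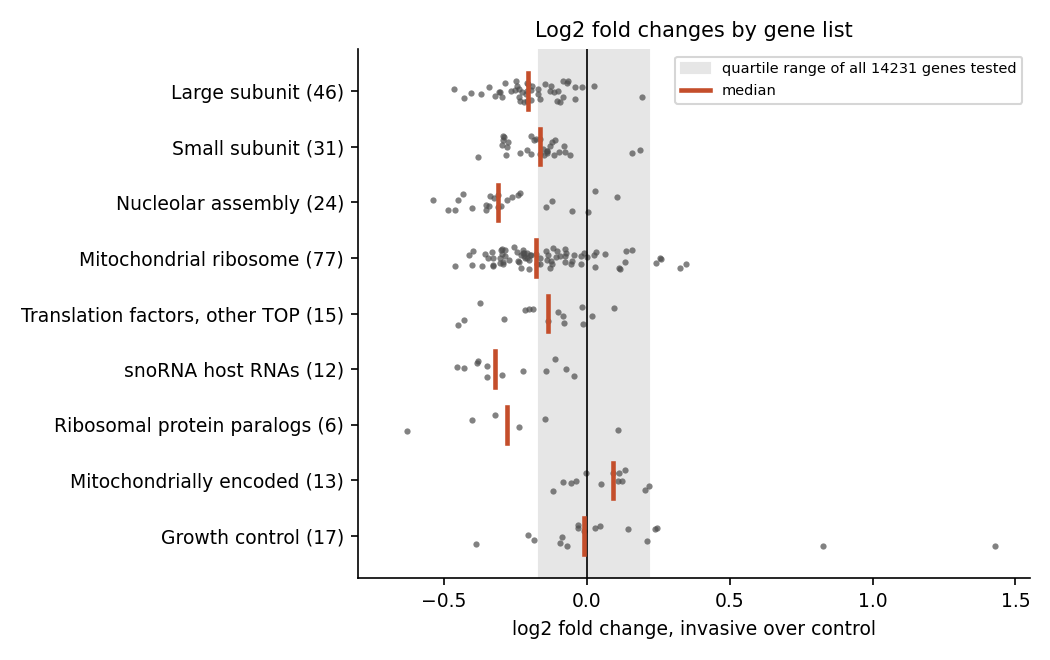
Log2 fold change (invasive over control) of each tested gene in 9 lists, with vertical bars for medians, the number tested in brackets and the quartile range of all genes tested in grey. The medians of the large and small subunit are −0.21 and −0.16, that of nucleolar assembly genes is −0.31 and that of mitochondrially encoded genes is 0.09.

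A list of growth control genes, wider than regulators of ribosome production, had a median of −0.01 over 17 tested of 18. Of these, 9 were negative and 8 positive. By edgeR 0 were called, with 1 lower and 3 higher at an unadjusted p under 0.05, against 8.41% and 9.82% of all genes. MYC, which drives transcription of ribosomal protein genes, had 71.0 and 72.4 CPM in invasive populations, against 85.0 and 101 CPM in controls, without overlap (−0.39 ± 0.10, edgeR adjusted p 0.139). MXD4, a repressor that competes with MYC for MAX, had 50.4 and 60.4 CPM in invasive populations, against 29.6 and 31.9 CPM in controls, again without overlap (0.83 ± 0.11, edgeR adjusted p 0.0626). DEPTOR, an inhibitor within the mTOR complexes, had 5.37 and 6.94 CPM in invasive populations, against 2.81 and 1.68 CPM in controls (1.43 ± 0.34, edgeR adjusted p 0.129). The last of the 3 higher genes was RPS6KB2, the gene of an S6 kinase, which acts downstream of mTOR. It had 86.1 and 85.5 CPM in invasive populations, against 74.3 and 68.8 CPM in controls, without overlap (0.24 ± 0.10, edgeR adjusted p 0.254). RPS6KB1, the gene of another S6 kinase, stood at −0.21 ± 0.11. MTOR itself stood at −0.03 and LARP1, which binds the tract, at −0.09. The genes of this list given here were chosen after their values were seen.

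Facts of the whole series bear on these values as follows. Library totals ran from 13829871 to 17817756 counts. Of 5 genes listed as marks of the line, VIM had 7336 to 8490 CPM and CD44 1554 to 2162 CPM. CDKN2A and MTAP, which the line has lost, had at most 2 counts in a library. NES was far scarcer than VIM and CD44, with 33.7 and 15.7 CPM in invasive populations, against 41.48 and 19.5 CPM in controls. Of 11 markers of other slice cells, AQP4, CLDN5, P2RY12 and MOG had 0 counts in every library and only SNAP25 and SYT1 were tested. The markers' summed level was 46.0 and 32.8 CPM in the invasive libraries, against 42.5 and 46.6 CPM in the controls, mostly SNAP25. These are counts of human genes. With the species of the slice not given, they cannot show how many slice cells remained. Mitochondrially encoded genes of all kinds took 3.28% of counts in each invasive library, against 3.05% and 2.78% in the controls. The 13 protein-coding ones summed to 27814 and 27364 CPM in the invasive libraries, against 27173 and 24233 CPM in the controls. The part of these differences in the lower ribosomal protein share was not tested. Without any mitochondrially encoded genes in the totals, the summed ratios were 0.8980 in pair 1 and 0.8985 in pair 2.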

How the data were processed

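Polyadenylated RNA was measured in 2 invasive and 2 control libraries of U87MG cells, made with a strand-specific kit per the labels' protocols. The authors deposited, for each Ensembl gene, the raw count of reads as a whole number, per the file headers. They also deposited a normalized value per gene rounded to whole numbers, treated here as a score and used in 1 alternative only. The tools listed in the submitters' processing notes are TopHat2 2.0.12, HTSeq, Bowtie, DESeq2 and bcl2fastq 1.8.4, with the GRCh38 build. Their roles, and the strand setting of the counting, are not given in the sources used here.

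Of 32100 genes listed in pair 1 and 33485 in pair 2, the 29387 in all 4 count files were joined. CPM are counts per 1e6 of the joined total, and 3 counts, taken as the limit that a count of 0 allows, correspond to 0.168 to 0.217 CPM, which covers counting error only. Counts were tested with the quasi-likelihood F test of edgeR (edgeR 4.0.16, limma 3.58.1, R 4.3.3), two-sided and robust, with TMM factors, filterByExpr by group (minimum count 10, minimum total 15), a block for the pair and adjustment by Benjamini-Hochberg over 14231 genes at 0.05. The method was tested on simulated data with planted changes far larger than the members' median. That test therefore does not show how well differences of the members' size are found. The pairing comes from the series' design text, and the deviations of same-numbered libraries correlated across genes (r 0.283). The 2 libraries of a group were no duplicates, with a chi-square per degree of freedom of 21.5 between invasive and 34.5 between control libraries. Within pairs, log2 differences used a prior count of 2 and had no test. DESeq2 1.42.0 served as an alternative.

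Coding length, GC content and 50-base windows came from GENCODE v29 transcripts, the same build but a newer release than the files, and transcript starts from RefSeq. No RefSeq start was matched for 15 members.

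The members and gene lists were chosen with earlier results of these data known. Named members were, in each subunit, the 5 lowest and 5 highest log2 fold changes, the 5 most abundant per kb, any past the threshold and a fixed set of 13 (RPLP0, RPLP1, RPLP2, RPSA, RPS6, RPS3, RPS27A, RPL5, RPL11, RPL10, RPL22, RPS27 and RPL41), with every gene of lists of up to 16 genes. Some genes that this rule names are counted but not reported here by name. Other scalings, filters, fits and left-out libraries were tried. P-values of the blocked fit set a difference against the spread left between these 4 populations, each 1 library, once the pair is removed. With 1 residual against 5.45 prior degrees of freedom, most of that estimate is borrowed from other genes.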

Additional observations from a re-analysis of the deposited data

How the results depend on the processing

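No alternative gave the members' median log2 fold change a positive sign. With no replicate block the median was −0.19 over all members, −0.21 in the large subunit and −0.16 in the small, and edgeR called 0 members in either direction, with 8 lower at an unadjusted p under 0.05. With no filter on low counts the medians were −0.22, −0.23 and −0.19, and edgeR called 7 members lower (RPL26, RPL14, RPL9, RPS3A, RPL39, RPL23 and RPL32) and 0 higher, where it called 2.71% of 25577 genes lower. The cause was not tested. Leaving out each library in turn, in fits with no block, gave medians between −0.25 and −0.14 over all members, −0.26 and −0.14 in the large subunit and −0.25 and −0.13 in the small, with 0 members called. The alternatives chosen after seeing the data were the GC trend, with medians of −0.18, −0.19 and −0.16, and members with under 50 percent of windows shared, with −0.17, −0.19 and −0.16. Adding pseudogene counts gave −0.20 in the large subunit.

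Scaling moved the sums. With TMM sizes the pair 1 median was −0.20 and the summed ratios in pair 1 were 0.875 for all, 0.870 for the large and 0.8845 for the small subunit. The authors' deposited normalized values gave medians of −0.12 in pair 1 and −0.13 in pair 2, ratios of 0.920 and 0.921 for all, 0.913 and 0.918 for the large and 0.934 and 0.927 for the small subunit in pairs 1 and 2, and 60 members lower in both pairs. Leaving mitochondrially encoded genes out of the totals gave 0.8985 in pair 2.

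Of 374 values of 34 named members under the alternatives, 9 had the opposite sign. Leaving out a single library moved 20 of the 34 by over 1.5 times in at least 1 fit, and the GC trend moved 7. RPL21 was 0.014 with the GC trend removed. Leaving out single libraries gave ranges of −0.080 to 0.035 for RPL13, −0.27 to 0.20 for RPL21, −0.20 to 0.015 for RPL41, −0.059 to 0.10 for RPLP0 and −0.27 to 0.11 for RPS26. Without a change of sign, they gave −0.53 to −0.09 for RPS7, −0.28 to −0.0002 for RPSA, −0.31 to −0.04 for RPS27, −0.62 to −0.26 for RPL14, 0.03 to 0.35 for RPL28 and 0.02 to 0.34 for RPS29. RPS15 was 0.08 without invasive 1 and 0.04 with the GC trend removed.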
